A study of Mus musculus with 2 samples.

Results

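The CCN genes encode a small family of secreted matricellular proteins, and 5 of them, Ctgf, Cyr61, Nov, Wisp1 and Wisp2, were followed here through the cells of postnatal mouse limb tendons. They were taken by symbol from the 27998 genes of the deposited count files, which use the older names; the present names are Ccn2, Ccn1, Ccn3, Ccn4 and Ccn5 in the same order. CCN proteins share modules that resemble an insulin-like growth factor binding domain, a von Willebrand factor type C repeat, a thrombospondin type 1 repeat and, in all but Wisp2, a C-terminal cystine knot. They bind integrins, heparan sulphate proteoglycans and growth factors rather than a single dedicated receptor. Cyr61 and Ctgf are well known as rapid transcriptional targets of mechanical load, serum, TGFβ and the YAP and TEAD pathway, and Ctgf is known as a factor that promotes matrix production in connective tissue.

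The cells came from tendons of all limbs at P7. A single library was made of each condition, wild-type and mutant, from the pooled tendons of 2 pups. In the mutant (Tgfbr2 f/-;ScxCre) the single floxed copy of the gene of the TGFβ type II receptor was deleted with Cre driven by Scleraxis (Scx), which directs the deletion to cells that express or once expressed Scx. The study reports that most mutant tendon cells had lost a Scx reporter by P7 and traces these to tenocytes. It proposes that cells keeping the signal were newly recruited, some with weak or no Cre reporter. Cells with or without Scx may therefore differ in origin between the libraries, and the counts do not show which had lost the receptor. The control sample is called wild-type in its title and Het in its description. All mice of the study, controls included, carried the ScxGFP tendon reporter and the Cre reporter Ai14 Rosa26-tdTomato, and the counts of Scx may include transcripts of ScxGFP, which the files do not tell apart. The cells were released by enzymes without tissue scraping, and no sort is described for them. There was no second library of either condition, so no test was run, and batch and genotype cannot be told apart. Every interval below covers counting error only, which for shares is that of the number of positive cells.

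The unit is the unique molecular identifier (UMI), 1 captured mRNA molecule counted at its 3′ end, which makes levels of different genes comparable without a correction for length. Levels are given as CPM, the UMIs of a gene per 1000000 UMIs of a cell class. The wild-type library held 2364 cells and 9451606 UMIs, the mutant library 2592 cells and 8250248 UMIs, and they shared 2 cell barcodes. Cells with at least 30 Scx UMIs per 10000 were called Scx-high (1156 wild-type and 231 mutant cells, 48.9% and 8.91% of the libraries). Cells below that with at least 5 UMIs over Ly6a, Cd34, Dpt, Lum and Col3a1 were called Scx-low fibroblasts (719 and 1830 cells, 30.4% and 70.6%). Mural cells, the pericytes and smooth muscle cells around vessels, held 5 or more UMIs over Rgs5, Notch3, Kcnj8, Abcc9, Myh11 and Cspg4 and numbered 147 and 83. Endothelial cells, with 5 or more over Pecam1, Cdh5, Emcn, Egfl7 and Kdr, numbered 22 and 25, and cells passing these or the immune and Schwann gates were kept out of the Scx classes. These are ranges of counts and not proven cell types: 46 wild-type and 49 mutant Scx-high cells lay between 30 and 60, and the median number of fibroblast-list UMIs in Scx-high cells was 1 for wild-type and 17 for mutant cells. The tendon markers Tnmd, Fmod, Thbs4, Kera and Mkx, which did not enter the gates, summed to 15528 and 10473 CPM in Scx-high cells, and Pdgfra, Mfap5, Pi16, Clec3b and Gsn to 8819 and 4230 in Scx-low fibroblasts. The mural markers Acta2, Tagln, Pdgfrb, Mcam and Des summed to 33771 and 22345 CPM in mural cells. They also stood at 278 in wild-type and 2043 in mutant Scx-high cells. Tgfbr2 itself was counted at 30.5 CPM in wild-type and 46.1 in mutant Scx-high cells (1.51-fold, 95% interval 1.07 to 2.10). Counting at the 3′ end does not report on whether an upstream exon is missing, so this value does not check the label.

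The coding sequences of the 5 genes run from 753 bases in Wisp2, the member without the C-terminal module, to 1137 in Cyr61 (1044 in Ctgf, 1062 in Nov and 1101 in Wisp1). On GRCm38 Ctgf lies on chromosome 10 (24595442 to 24598683, plus strand), Cyr61 on chromosome 3 (145646976 to 145649981, minus strand), Nov and Wisp1 on chromosome 15 (54745702 to 54754039 and 66891320 to 66923201, both plus strand) and Wisp2 on chromosome 2 (163820861 to 163833146, plus strand). Each is annotated with 5 exons, and none overlaps another gene on its strand. The 24 coding bases of the motif of the binding-protein module are shown here 5′ to 3′ from the GENCODE transcripts, with the cysteine codons in capitals. Each stretch was found by searching the encoded protein for a fixed spacing of a glycine and the cysteines.
Ctgf: ggcTGCggcTGCTGCcgcgtcTGC
Cyr61: ggcTGCggcTGCTGTaaggtcTGC
Nov: ggcTGCtccTGCTGTccggtgTGC
Wisp1: ggcTGTgaaTGCTGTaagataTGT
Wisp2: ggcTGTggcTGCTGTcgagtgTGT
The 4 cysteine positions were set by this search and each of the 5 genes holds a match, while the codons between them differ. The motif starts at codon 52 of Ctgf, 49 of Cyr61, 54 of Nov, 72 of Wisp1 and 49 of Wisp2.

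Cyr61 was the most abundant member in every one of the main classes except wild-type mural cells, so its promoter is shown as well (RefSeq, GRCm38.p6, minus strand, the 250 bases before the annotated start, chr3:145649986-145650235). The capitals mark, from 5′ to 3′, CATTCC, the core letters of a TEAD site, at 103 to 98 bases before the start, ACGTCA, the reverse strand of the cyclic AMP response core TGACGT, at 59 to 54, and TATAAA at 25 to 20.
Cyr61 promoter: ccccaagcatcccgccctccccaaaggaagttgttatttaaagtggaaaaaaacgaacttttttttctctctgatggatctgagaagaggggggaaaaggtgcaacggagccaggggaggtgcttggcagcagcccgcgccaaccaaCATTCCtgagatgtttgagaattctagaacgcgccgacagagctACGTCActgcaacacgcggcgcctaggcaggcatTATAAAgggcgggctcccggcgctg
Of 32851 promoter windows of the same length, 12.6% hold CATTCC, 6.47% TGACGT and 12.4% TATAAA on either strand. The letters TGACTCA and GTCTAGAC, searched as the cores of AP-1 and SMAD sites, are not in this window and are in 4.46% and 0.167% of all windows. These matches describe the letters only.

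In the wild-type library each member had its own distribution over the cell classes. Cyr61 stood at 892 CPM in Scx-high cells (865 to 919, exact Poisson 95% interval), 863 in endothelial cells (676 to 1085), 481 in mural cells and 406 in Scx-low fibroblasts (382 to 431). The Scx-high and endothelial levels could not be told apart (ratio of endothelial to Scx-high 0.968, 0.757 to 1.22), and they were 2.20-fold and 2.13-fold above the fibroblasts. Wisp1, a Wnt-induced member known from bone and fibrotic tissue, was a gene of Scx-high cells in this library. It stood at 297 CPM there (282 to 313), against 108 in mural cells and 64.4 in Scx-low fibroblasts (55.2 to 74.7), and 83.3% of all its UMIs came from Scx-high cells.

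Nov, a secreted integrin ligand like the others, had the opposite arrangement. It was highest in Scx-low fibroblasts at 326 CPM (305 to 348), followed by mural cells at 200.3 (169 to 235) and Scx-high cells at 73.9 (66.4 to 81.9), and 62.9% of its UMIs came from Scx-low fibroblasts. Wisp2, a member known from smooth muscle and fibroblasts, was nearly limited to mural cells. It reached 530.0 CPM there (479 to 585) and only 10.3 and 6.85 in Scx-low fibroblasts and Scx-high cells, whose difference was within the counting interval (ratio of Scx-high to Scx-low 0.664, 0.389 to 1.14). Ctgf was the second-lowest member in Scx-high cells. It stood at 98.1 CPM in mural cells (76.8 to 124), 42.1 in Scx-high cells (36.5 to 48.3) and 19.9 in Scx-low fibroblasts (14.9 to 25.9), which makes 3 separate levels, and it had 2 UMIs in all endothelial cells together.

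In the mutant library the order of classes was kept for some members only. Cyr61 stood at 1154 CPM in endothelial cells, 869 in Scx-high cells, 798 in mural cells and 619.6 in Scx-low fibroblasts, and its mural and Scx-high levels could not be told apart (ratio 0.919, 0.788 to 1.07). Wisp1 again led in Scx-high cells, 3.39-fold above Scx-low fibroblasts (2.93 to 3.91) where the wild-type library had 4.61-fold (3.94 to 5.43). Nov was again highest in Scx-low fibroblasts, at 1.84-fold the Scx-high level (1.43 to 2.40) against 4.41-fold in the wild-type library (3.89 to 5.00), and its mural and Scx-high levels could not be told apart (ratio 1.12, 0.638 to 1.89), the Scx-high level including 20 of 67 UMIs from a single cell. Wisp2 was 1.67-fold higher in mural cells than in Scx-low fibroblasts (1.11 to 2.43), where the wild-type counts differed 51.4-fold (35.0 to 78.4). Ctgf led in Scx-high cells instead of mural cells, 3.25-fold above Scx-low fibroblasts (2.50 to 4.20), with mural cells at the level of the latter (ratio 1.06, 0.450 to 2.14).

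Wisp3, the remaining gene of the family, had 2 UMIs in the whole wild-type library and 3 in the mutant library. Free RNA can set a floor under such values, and immune cells were used as its measure. In immune cells, which had a median of 2415 and 1704 UMIs per cell, Cyr61 stood at 89.0 and 89.7 CPM, Nov at 21.3 and 23.8, Wisp1 at 29.0 and 13.2 and Wisp2 at 1.94 and 15.8, while Ctgf had 0 UMIs in 192 and 189 cells, which allows a level of up to 5.81 and 7.92 CPM (3 UMIs). Haemoglobin-rich cells, at medians of 5682 and 4451 UMIs, had Cyr61 at 38.8 and 6.01 CPM and 0 Wisp2 UMIs in each library. Whether the immune counts were all free RNA was not tested. The Wisp2 level of wild-type Scx-high cells lay inside the immune interval of that library (0.0490 to 10.8), as did the 10.3 CPM of wild-type Scx-low fibroblasts. That interval rests on 1 UMI, and the ratios to immune cells were 3.54 (0.592 to 144) and 5.32 (0.880 to 218). Whether these 2 levels exceeded the background is thus not decided, and neither is read as expression of Wisp2. The mutant Scx-high level lay inside the interval of the mutant library (5.81 to 34.5), but 5 of the 6 Wisp2 UMIs behind that interval came from a single immune cell. Without that cell the immune level was 2.67 (0.0677 to 14.9), below the 23.5 of mutant Scx-high cells, and whether their level exceeded the background is not decided here. Against the same 6 UMIs, mutant Scx-low fibroblasts stood 4.23-fold above the immune cells of their library (1.92 to 11.6) and mutant mural cells 7.07-fold (2.89 to 20.8).

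**Figure D1:**
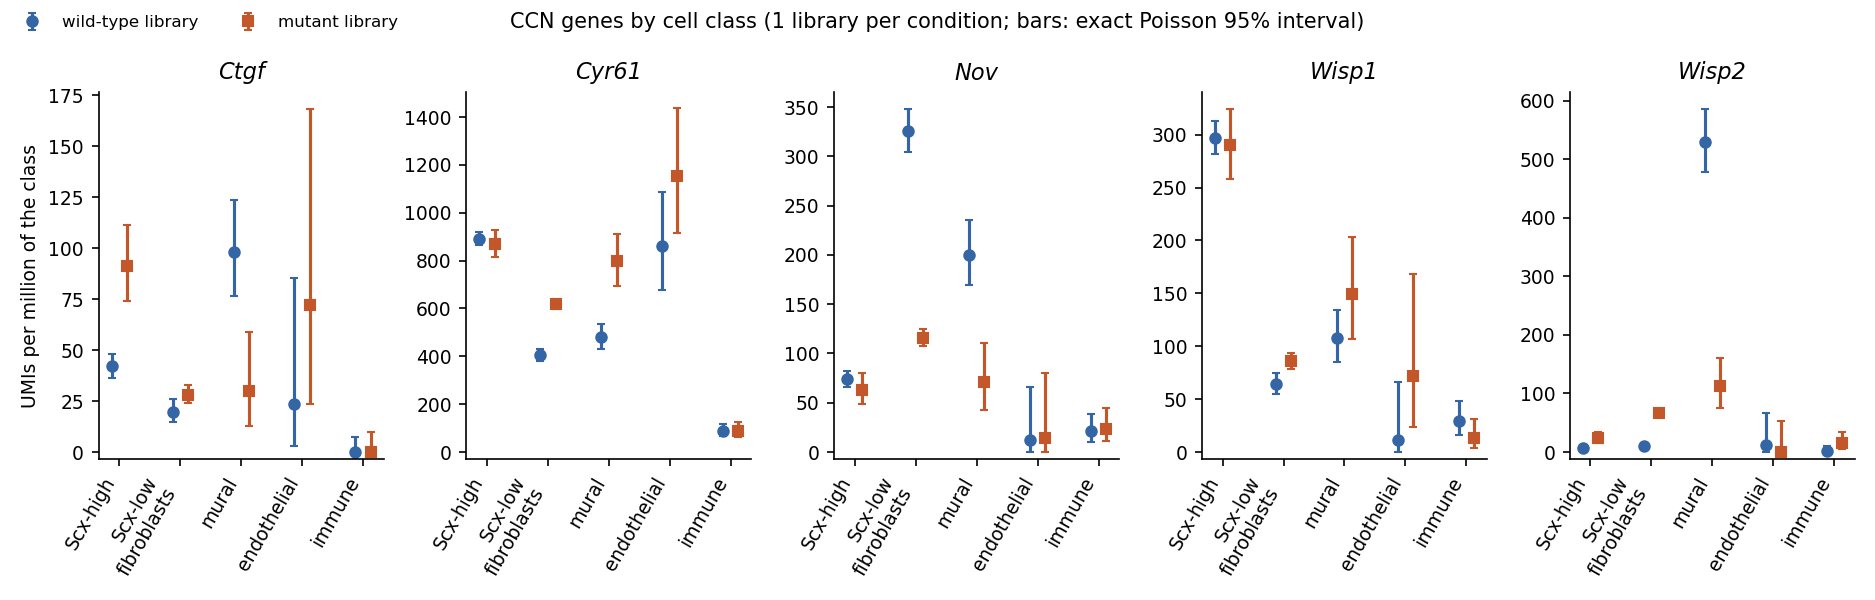
Level of each CCN gene in CPM (vertical axis, a separate linear scale for each gene) in 5 cell classes of the wild-type (circles) and mutant (squares) libraries, with bars for the exact Poisson 95% interval of the summed count. Wild-type Wisp2 stands at 530.0 in mural cells and wild-type Nov at 326 in Scx-low fibroblasts, and both are far lower in the mutant library, at 112 and 116.

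Among Scx-high cells, Ctgf was higher in the mutant library, while on totals of all UMIs the intervals of the ratios of Cyr61, Wisp1 and Nov included 1. Ctgf stood at 42.1 CPM in the wild-type library (203 UMIs) and at 91.3 in the mutant library (97 UMIs), 2.17-fold higher (1.68 to 2.77). With each cell thinned to 1500 UMIs, 4.76% of wild-type and 8.96% of mutant Scx-high cells held a Ctgf UMI, a difference of 4.20 percentage points (0.435 to 9.03), against 0 of 151 and 0 of 112 immune cells, which allows shares of up to 1.99% and 2.68%. As counted the shares were 11.9% and 25.5%. With cells thinned to 1000 UMIs the difference was 2.98 points with an interval that included 0 (-0.158 to 7.18). At 2500 UMIs it was 7.46 points (2.04 to 13.9). The direction was the same in cells with 2 or more Col2a1 UMIs (2.40-fold, 1.29 to 4.14, on 14 mutant UMIs) and in the rest (2.74-fold, 1.79 to 4.31), although the former made up 76.2% of wild-type and 12.1% of mutant Scx-high cells.

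Cyr61 stood at 892 and 869 CPM in Scx-high cells (ratio 0.974, 0.906 to 1.05) and Wisp1 at 297 and 289.9 (0.976, 0.860 to 1.10), with intervals on both sides of 1. The Wisp1 shares after thinning, 33.4% and 26.9%, differed by -6.51 points with an interval that included 0 (-13.0 to 0.578), and those of Cyr61, 54.6% and 54.7%, by 0.146 points (-7.44 to 7.62). Cyr61 differed by the Col2a1 split. In cells with 2 or more Col2a1 UMIs it stood at 912 and 1387 CPM (1.52-fold higher in the mutant library, 1.30 to 1.77, on 182 mutant UMIs), and in the rest at 806 and 796 (0.987, 0.890 to 1.09). Nov stood at 73.9 and 63.1 (0.854, 0.648 to 1.11), but 20 of the 67 Nov UMIs of mutant Scx-high cells came from a single cell. Without that cell, which was left out after the values had been seen, the mutant level was 44.5 CPM and the ratio 0.603 (0.435 to 0.818), so that the interval no longer included 1. Wisp2 stood at 6.85 and 23.5, a ratio of 3.44 (1.96 to 5.96) whose wild-type level was not told apart from the immune background. The ratio was 1.02 with the Scx limit at 60, and all 25 mutant UMIs lay in cells with 0 or 1 Col2a1 UMI. Of the 5 members, 2 were thus past 2-fold, Ctgf and Wisp2, and Ctgf alone had counts clear of the background. Of the 7371 genes with 50 or more UMIs over both libraries, called tested genes here, 16.8% were past 2-fold in either direction. Those at least 2-fold higher were 11.1% and those lower 5.78%, and none of these shares leaves out genes near the background. The median gene was 1.22-fold higher in mutant Scx-high cells (0.28 on the log2 scale), and relative to it Ctgf was 1.78-fold higher and Cyr61 and Wisp1 stood at 0.802 and 0.803. For Cyr61 and Wisp1 these values lie below the intervals given above, so whether the interval includes 1 depends on the scaling. The mural markers given above also differed in these cells, with Acta2 at 230.1 and 844 CPM and Tagln at 21.0 and 1076, and their part in the Ctgf difference was not tested.

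In Scx-low fibroblasts Nov and Wisp2 differed by more than the other members, in opposite directions. Nov stood at 326 CPM in the wild-type library (885 UMIs) and at 116 in the mutant library (663 UMIs), 2.81-fold lower (2.54 to 3.11). After thinning, 28.3% of wild-type and 11.5% of mutant cells held a Nov UMI, a difference of -16.8 points (-20.7 to -13.1), with 1.99% and 0.893% in immune cells. As counted the shares were 43.1% and 17.3%. Wisp2 stood at 10.3 (28 UMIs) and 66.9 (383 UMIs), 6.49-fold higher in the mutant library (4.42 to 9.90). As the wild-type level was not told apart from the immune background, this and the other Wisp2 folds against wild-type Scx-low fibroblasts compare counts, and the fold in expression has no upper limit here. The thinned share of cells with Wisp2 was 0.885% and 6.31%, a difference of 5.43 points (3.90 to 6.82), with 0 of 151 wild-type immune cells, which allows up to 1.99%, and 1.79% of mutant immune cells. As counted the shares were 3.20% and 9.07%. The Wisp2 UMIs of mutant Scx-low fibroblasts came from 166 of 1830 cells, up to 18 in 1 cell, so that most of these cells had none.

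The other members of Scx-low fibroblasts were higher in the mutant library by less. Cyr61 stood at 406 and 619.6 CPM (1.53-fold, 1.43 to 1.63), Wisp1 at 64.4 and 85.6 (1.33-fold, 1.12 to 1.59) and Ctgf at 19.9 and 28.1 (1.42-fold, 1.03 to 1.96). The thinned shares of cells did not follow these sums: Cyr61 differed by 3.48 points (-0.788 to 7.63), Wisp1 by -0.458 (-3.23 to 2.09) and Ctgf by -0.633 (-2.37 to 0.821), and no order is read for the latter pair. Of the 5 members, 2 were past 2-fold, 1 in each direction, against 8.45% of 9198 tested genes, with 4.08% higher and 4.37% lower, and the median gene stood at a ratio of 0.979.

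**Figure D2:**
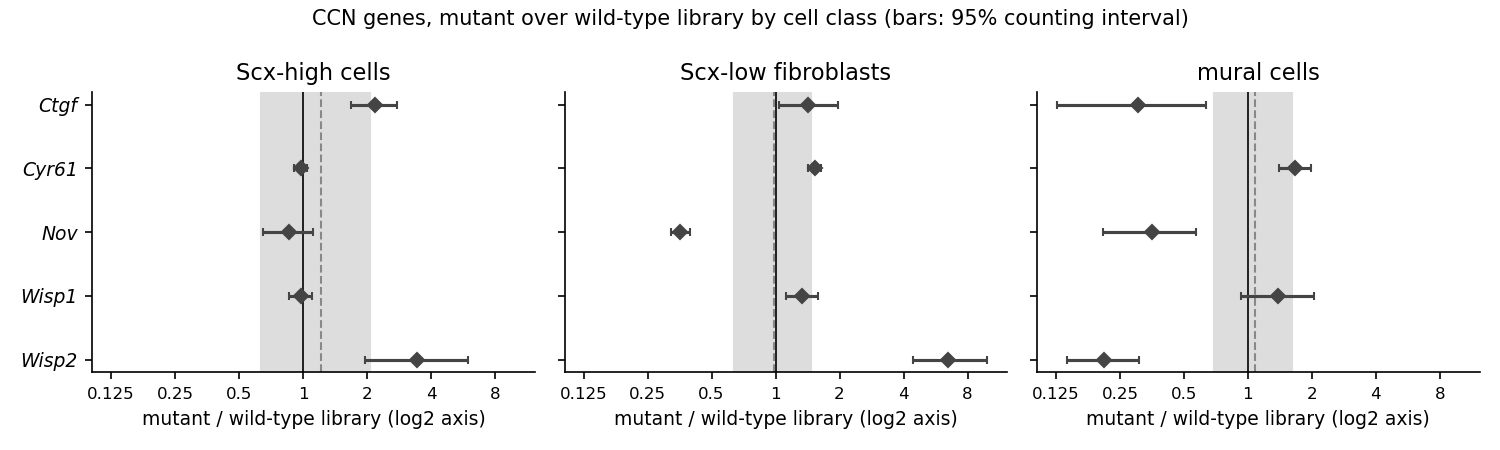
Level in the mutant library divided by the level in the wild-type library (horizontal axis, log2 scale) for each CCN gene in 3 cell classes, with bars for the exact conditional 95% interval. The grey band holds the middle of all tested genes, from the 10th to the 90th percentile, and the dashed line is their median. Wisp2 lies right of the band at 6.49 in Scx-low fibroblasts and left of it at 0.211 in mural cells.

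Immediate early genes, which rise within minutes of a stimulus and also during enzymatic dissociation, differed between the libraries in the same cells. Their 19 listed genes summed to 5092 CPM in wild-type and 7166 in mutant Scx-low fibroblasts, and to 3936 and 3482 in Scx-high cells. Cyr61 followed the immediate early level within each library. In wild-type Scx-high cells it stood at 1258 CPM above the pooled median of immediate early UMIs and at 478 at or below it, and in mutant Scx-high cells at 1257 and 635. The ratio for Scx-low fibroblasts was 1.21 above the median (1.11 to 1.34) and 1.56 at or below it (1.41 to 1.73). Ctgf and Wisp1 gave ratios on opposite sides of 1 in these parts of Scx-low fibroblasts. The wild-type Ctgf levels were 20.4 and 19.6 CPM above and at or below the median, and the mutant levels 9.86 and 47.5. Ctgf was thus at 0.482 above the median (0.259 to 0.923) and 2.42 at or below it (1.66 to 3.60), and Wisp1 at 0.633 (0.474 to 0.851) and 2.16 (1.73 to 2.71). Nov and Wisp2 kept their directions in both parts, with Nov at 0.330 and 0.424 and Wisp2 at 6.21 and 7.16. In Scx-high cells Ctgf was higher in both parts (2.12 and 2.37), whereas Nov was at 0.269 at or below the median (0.140 to 0.473) and at 1.81 above it (1.31 to 2.46). The value above the median rests on the cell with 20 Nov UMIs, and without it the ratio was 1.16 with an interval that included 1 (0.779 to 1.67). Cells above the median were 33.5% of wild-type and 56.4% of mutant Scx-low fibroblasts. These splits were added after the values had been seen.

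Along the Scx level of single cells the members followed different courses. Wisp1 climbed with Scx in both libraries, from 31.2 CPM at no Scx UMI to 312 at 100 to 300 per 10000 in the wild-type library and from 62.2 to 286 in the mutant library. At matched Scx from 10 per 10000 upwards the Wisp1 intervals of the libraries overlapped in each bin. Below that, mutant cells were higher, at 142 against 65.8 in the bin above 0 to 10. Cyr61 was flat below 100 per 10000 in the wild-type library, between 383 and 418, and rose to 821 and 1176 in the 2 highest bins. In the mutant library it was between 547 and 717 below 100 and reached 878 and 1086. The Cyr61 intervals of the libraries overlapped in the 2 highest bins and in the bin 10 to 30, at 390 (319 to 473) and 547 (464 to 642), and were apart in the other bins, where the mutant library was higher.

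Nov ran the other way in the wild-type library, from 359 in the bin above 0 to 10 down to 47.3 at 300 and above. In the mutant library it lay between 97.9 and 145 in the 4 lowest bins and was lower at 100 to 300 and at 300 and above, at 26.2 and 59.4 on 9 and 22 UMIs, 20 of the latter in a single cell. The Ctgf intervals overlapped at no Scx UMI, at 17.6 (9.39 to 30.2) and 21.3 (17.1 to 26.1), as they did from 10 to 30 and from 30 to 100. The libraries were apart beyond their intervals in the bin above 0 to 10, at 21.0 (14.7 to 29.0) and 43.6 (32.6 to 57.0), at 100 to 300, at 41.2 (34.1 to 49.3) and 96.2 (66.2 to 135), and at 300 and above, at 46.0 (35.8 to 58.2) and 113 (81.8 to 153). Wisp2 was near 60 CPM in the 4 lowest bins of the mutant library, between 54.4 and 69.5, and at 8.75 and 2.70 in the upper bins, on 3 UMIs and 1 UMI. Its higher sum in mutant Scx-high cells came mostly from cells close to the limit of the class, 21 of 25 UMIs lying in the bin 30 to 100, and with the limit at 60 the ratio was 1.02.

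**Figure D3:**
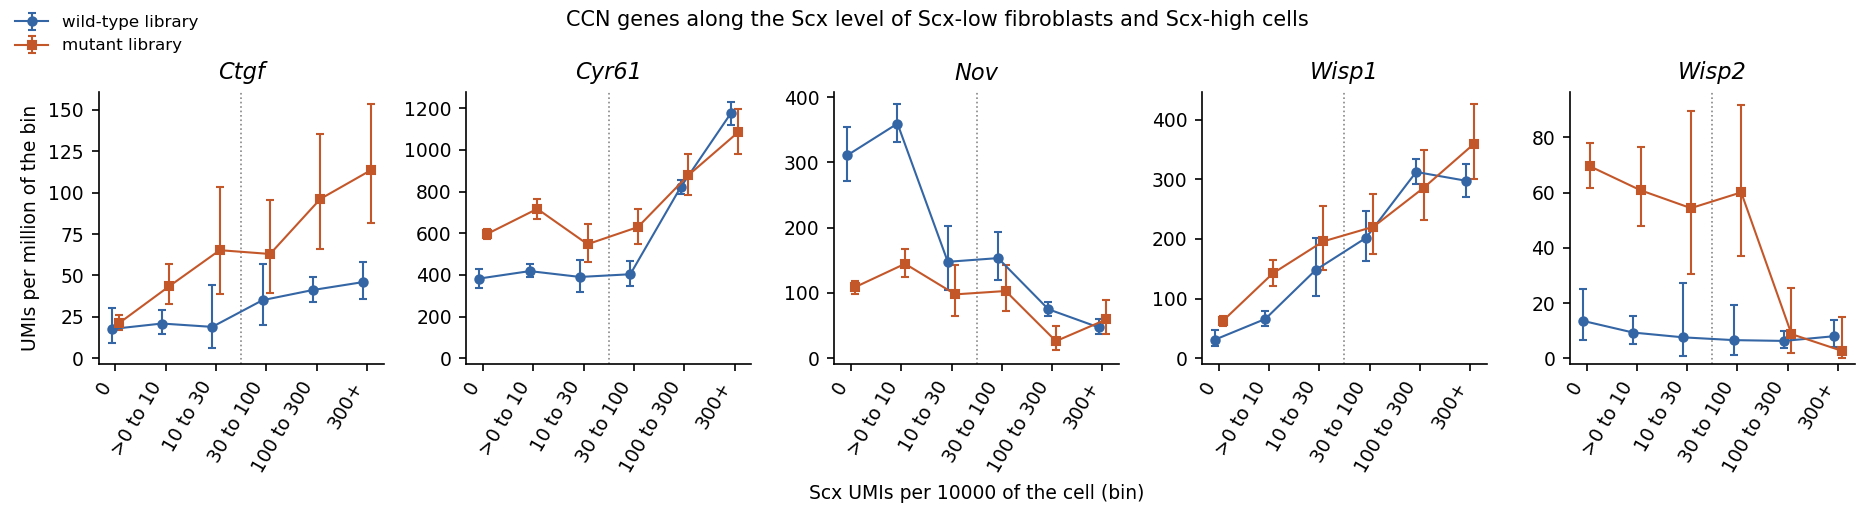
Level of each CCN gene in CPM (vertical axis, linear, a separate scale for each gene) in bins of Scx UMIs per 10000 over Scx-low fibroblasts and Scx-high cells of the wild-type (circles) and mutant (squares) libraries, with exact Poisson 95% intervals. The dotted line marks the limit of 30; Wisp2 of the mutant library drops from 60.1 in the bin 30 to 100 to 8.75 in the next.

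Within Scx-low fibroblasts Nov was lower in the mutant library in each of the subsets by Pi16 or by Tnmd. In cells with a UMI of Pi16, a gene of adventitial fibroblasts, Nov stood at 487 CPM among wild-type and 225 among mutant cells, 2.16-fold lower (1.87 to 2.50), and in cells without one at 190 and 85.5, 2.22-fold lower (1.90 to 2.60). Pi16-positive cells were 42.8% of wild-type and 19.6% of mutant Scx-low fibroblasts, and both subsets gave a smaller fold than the whole class. The Pi16 shares rest on raw counts at medians of 3588 and 2876.5 UMIs per cell, and the part of depth was not tested. In cells with 2 or more UMIs of tenomodulin (Tnmd), a membrane protein of tenocytes, Nov stood at 158 and 85.4 (1.85-fold lower, 1.45 to 2.36), and in the remaining cells at 386 and 134 (2.89-fold lower, 2.58 to 3.25). In cells that were Tnmd-positive and without Pi16, the interval of the Nov ratio included 1 (0.756, 0.559 to 1.03, levels 107 and 80.7).

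Wisp2 was higher in the mutant library in the same 4 subsets. It stood at 8.33 and 44.6 CPM in Tnmd-positive cells, 11.0 and 79.9 in the others, 8.07 and 75.7 in Pi16-positive cells and 12.2 and 64.5 in Pi16-negative cells, with ratios between 5.30 and 9.38 against wild-type sums of 6 to 22 UMIs. Wisp1 differed by subset. In the wild-type library it followed Tnmd, at 115 with 2 or more Tnmd UMIs and 46.1 with 0 or 1, and the mutant library had 85.4 and 85.7 in the same subsets. The ratio was accordingly 0.741 in Tnmd-positive cells (0.568 to 0.973) and 1.86 in the rest (1.47 to 2.37). By Pi16, Wisp1 was at 2.60 in positive cells (1.84 to 3.74) and 0.946 in negative cells (0.772 to 1.17). Ctgf likewise was at 2.72 in Pi16-positive cells (1.64 to 4.66) and 1.04 in Pi16-negative cells (0.693 to 1.60), so that for both genes the interval included 1 in the larger, Pi16-negative part of the mutant class. Within that part Wisp1 was at 0.632 in Tnmd-positive cells (0.475 to 0.849) and 1.35 in the rest (1.003 to 1.84). The Ctgf intervals included 1 in both.

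In mural cells Wisp2, Nov and Ctgf were lower in the mutant library. Wisp2 stood at 530.0 CPM in 147 wild-type cells (389 UMIs) and at 112 in 83 mutant cells (30 UMIs), 4.74-fold lower (3.26 to 7.11). Nov stood at 200.3 and 70.9, 2.83-fold lower (1.75 to 4.83), and Ctgf at 98.1 and 29.8, 3.29-fold lower (1.58 to 7.90) on 72 and 8 UMIs. Cyr61 was higher in the mutant library, at 481 and 798 (1.66-fold, 1.39 to 1.97), and Wisp1 stood at 108 and 149 (1.39-fold, 0.923 to 2.05). Of the 5 members, 3 were past 2-fold, all lower, against 6.65% of 3009 tested genes in either direction, 3.39% higher and 3.26% lower. With gates at 3 UMIs in place of 5 the Nov ratio was 0.513, no longer past 2-fold, and those of Ctgf and Wisp2 were 0.442 and 0.277. Mutant mural cells were shallower, with a median of 3045 UMIs against 4692, and the thinned share of cells with Wisp2 was 38.0% and 9.09%.

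The makeup of the mural class moved with these values. Cells with 2 or more UMIs of Myh11, the smooth muscle myosin and a gene of the mural gate, were 60.5% of wild-type and 41.0% of mutant mural cells. In them Wisp2 stood at 781 and 235 CPM (3.32-fold lower, 2.27 to 5.02), Nov at 269.9 and 105, and Ctgf at 117 and 40.6. In mural cells with 0 or 1 Myh11 UMI, Wisp2 stood at 40.2 and 6.90 on 10 and 1 UMIs. The split was added after the values had been seen. It used raw UMIs per cell, mutant mural cells were shallower, and the part of depth in the Myh11 shares was not tested. The median number of fibroblast-list UMIs was 11 in wild-type and 4 in mutant mural cells. The fibroblast markers Pdgfra, Mfap5, Pi16, Clec3b and Gsn summed to 1271 and 1365 CPM there. The part of fibroblast RNA in the mural differences was not tested. Endothelial cells were too few for most members: Ctgf had 2 and 5 UMIs, Nov 1 and 1, Wisp1 1 and 5, and Wisp2 1 and 0. Cyr61 stood there at 863 and 1154 CPM (1.34-fold, 0.961 to 1.86), the only member with enough UMIs to be tested among 514 genes, of which 7.78% were past 2-fold, 2.72% higher and 5.06% lower.

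**Figure D4:**
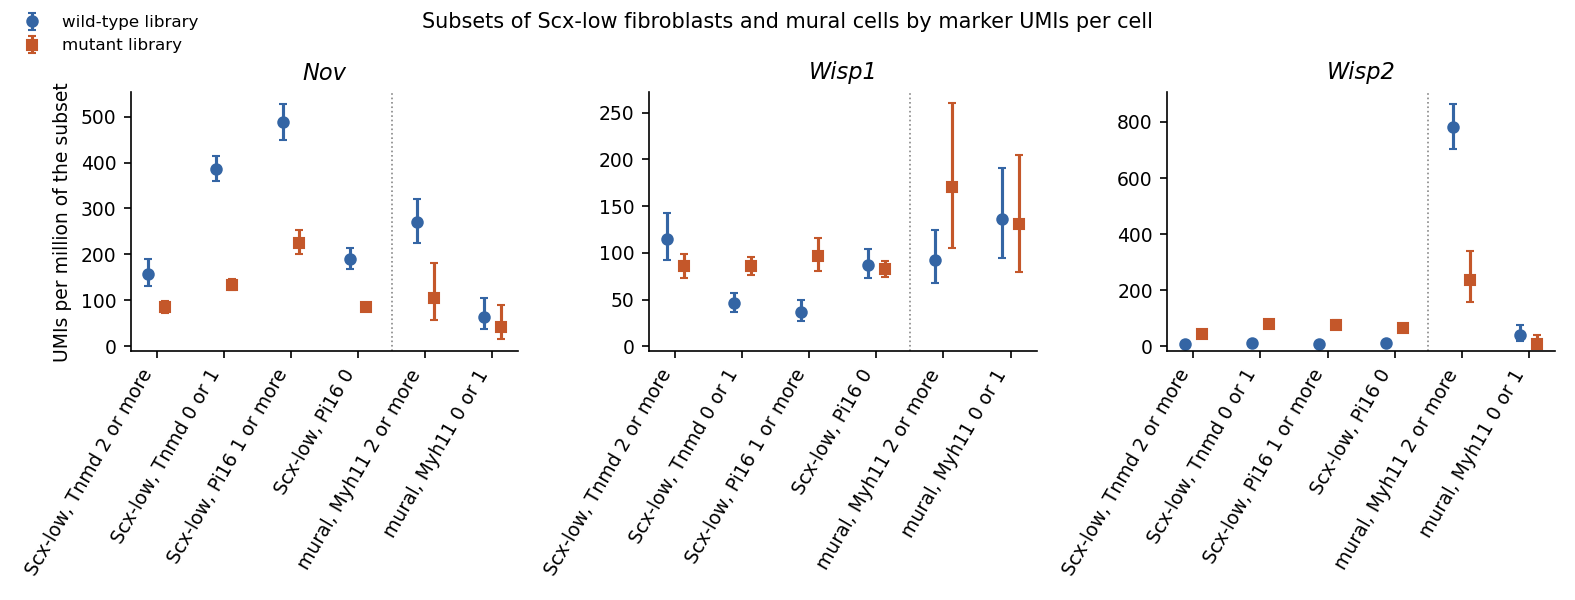
Level of Nov, Wisp1 and Wisp2 in CPM (vertical axis, linear, a separate scale for each gene) in subsets of Scx-low fibroblasts, split by Tnmd or Pi16 UMIs per cell, and of mural cells, split by Myh11, in the wild-type (circles) and mutant (squares) libraries, with exact Poisson 95% intervals. Wisp2 stands at 781 in wild-type mural cells with 2 or more Myh11 UMIs and at 235 in their mutant counterparts.

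In Scx-low fibroblasts and mural cells the family as a whole changed less than its makeup. Summed over the 5 genes it stood at 1312 and 1336 CPM in Scx-high cells, 826 and 916 in Scx-low fibroblasts and 1417 and 1160 in mural cells. The makeup of Scx-high cells was also close, with Cyr61 at 68.0% and 65.0% of family UMIs. In endothelial cells the sum was 922 and 1312 CPM, on 78 and 91 UMIs, with Cyr61 at 93.6% and 87.9%. In wild-type Scx-low fibroblasts Cyr61 and Nov gave 49.1% and 39.4% of family UMIs, and in the mutant library 67.6% and 12.6%. In mural cells Wisp2 gave 37.4% of wild-type and 9.65% of mutant family UMIs. At the level of the library, Wisp2 was almost equal at 48.2 and 53.9 CPM. Mural cells, 6.22% of wild-type cells, held 85.3% of its wild-type UMIs. Scx-low fibroblasts, 70.6% of mutant cells, held 86.1% of its mutant UMIs. The Wisp2 level of the mutant library was still higher in mural cells, at 112 CPM against 66.9 in Scx-low fibroblasts. Wisp1 was 1.71-fold lower in the mutant library as a whole (1.58 to 1.86) while the interval of its Scx-high ratio included 1, and Scx-high cells were the smaller share of that library. The study compared its mutant cell cluster with wild-type tenocytes and lists Wisp1 as lower there. Its clusters came from K-means and not from UMI limits, and the fold it lists is larger than that between the classes here. Across classes, mutant Scx-low fibroblasts stood at 0.288 of the Wisp1 level of wild-type Scx-high cells (0.260 to 0.320). In this comparison Cyr61 was at 0.695, Ctgf at 0.668 and Nov at 1.57. Wisp2 was at 9.77, against a wild-type level not told apart from the immune background.

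Members tended to be found in the same mutant Scx-low fibroblasts. Among 1664 such cells thinned to 1500 UMIs, a UMI of Cyr61 was held by 73.2% of the 41 cells with Ctgf and 32.7% of the rest, a UMI of Nov by 39.0% and 10.8%, and a UMI of Wisp2 by 15.6% of the 147 cells with Wisp1 and 5.41% of the rest. The share was higher in the positive cells for each of the 10 pairs. In 678 wild-type Scx-low fibroblasts 6 pairs had enough positive cells. Among the 21 cells with Ctgf, 47.6% held Cyr61 against 29.7% of the rest and 42.9% held Nov against 27.9%, in the direction seen in the mutant library. Wisp1 was held by 6.77% of cells with Nov and 10.3% of the rest, and the shares of the remaining pairs lay close together, at 9.52% and 9.28% for Wisp1 with and without Ctgf, 9.27% and 9.30% for Wisp1 with and without Cyr61 and 29.3% and 27.9% for Nov with and without Cyr61. The difference between the libraries was not tested. These shares describe 1 library each and rest on few positive cells.

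Genes that act with the CCN family were described from lists of their receptors and of the pathways that drive them. Of 14 CCN receptors and coreceptors, 9 were tested in Scx-high cells and 1 was past 2-fold (16.8% of all tested genes), the integrin subunit Itgav, higher at 2.12, followed by Itga5 at 1.63, with Lrp1 at 0.818 and Tgfbr3 at 0.518 at the other end. In Scx-low fibroblasts 12 were tested, and 3 were at least 2-fold lower, beside 4.37% of all tested genes in this class. They were the integrin subunits Itgb3, at 36.8 and 6.81 CPM (ratio 0.185, 0.124 to 0.271), Itga6 at 0.211 and Itga5 at 0.347, while Tgfbr3 at 1.47 and Lrp1 at 1.24 were the highest. The median log2 ratio of the receptors was 0.16 and -0.22 in the respective classes, beside 0.28 and -0.03 over all tested genes.

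Among 21 other YAP and TEAD target genes, 17 were tested in each class. In Scx-high cells 3 were at least 2-fold higher and 1 lower (median 0.15), beside 11.1% and 5.78% of all tested genes, with Myof at 4.04, the receptor kinase Axl at 2.41 and the ligand Tgfb2 at 2.38, against Ptpn14 at 0.523 and Crim1 at 0.177. In Scx-low fibroblasts 2 were higher and 2 lower (median -0.08), beside 4.08% and 4.37%, with Gadd45a at 28.3 and 113 CPM and Tgfb2 at a ratio of 2.41 against Axl at 0.479 and the tissue factor gene F3 at 0.343. Axl thus stood on opposite sides in the classes, a difference that was not tested.

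TGFβ target genes other than the CCN members differed most in Scx-high cells, where 9 of 14 were at least 2-fold higher in the mutant library and 1 lower, with a median log2 ratio of 1.71, beside 11.1% and 5.78% of all tested genes and their median of 0.28. The 14 genes and the median of each class include Scx, whose level defined the classes (ratio 1.09 in Scx-high cells). Markers of other classes also differed in Scx-high cells. The mural markers summed to 278 and 2043 CPM, each of the 5 being higher in the mutant library. The fibroblast markers Pdgfra, Mfap5, Pi16, Clec3b and Gsn summed to 384 and 1813, a rise carried by Mfap5 (55.4 and 1543), while Clec3b stood at 112 and 66.8 and Gsn at 198 and 172. None of either list was at 0, and their part in the TGFβ list was not tested. Ltbp2 rested on 4 wild-type UMIs against 156 (ratio 177, 67.7 to 657), and Postn, a matricellular protein of wounds and periosteum, stood at 163 and 3437 CPM (21.0-fold). Col1a1 was at 0.278 and Tgfbi at 0.688. In Scx-low fibroblasts 2 of 14 were higher (median -0.03), Ltbp2 at 14.0 and 34.9 CPM and Postn at a ratio of 2.21, beside 4.08% of all tested genes. The only gene of the list at least 2-fold lower was Scx at 0.392, whose level defined the class and which is no finding here, and the next was Smad7 at 0.608.

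Of 13 Wnt targets and feedback genes only 4 and 5 had enough UMIs. In Scx-high cells Nkd2 was at 3.29 and Ccnd1 at 1.18, with Dkk2 at 0.618 and Nkd1 at 0.417. In Scx-low fibroblasts Lgr5 was at 1.84 and Nkd2 at 1.72, with Nkd1 at 0.798 and Ccnd1 at 0.249. Of 19 immediate early genes, 17 were tested in Scx-high cells, with 2 at least 2-fold higher (11.1% of all tested genes), Myc at 2.92 and Klf6 at 2.36, none 2-fold lower, and Atf3 at 0.602 and Klf4 at 0.599 the lowest (median -0.34). In Scx-low fibroblasts 5 of 18 were higher and 1 lower (median 0.60), beside 4.08% and 4.37% of all tested genes, with Myc at 4.73, Socs3 at 2.45, Fos at 2.14 and Zfp36 and Junb at 2.02 each, against Hspa1a at 0.546 and Klf4 at 0.389. Itga5, Tgfb2, Fos, Zfp36 and Junb were named after their values had been seen.

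The genes whose levels ran most like those of a member over the 4 main classes of both libraries, 8 points in all, were chosen by Pearson's r on the scale of log2 of CPM plus 10, out of 6702 genes. For Nov they were Zdhhc1, the Wnt ligand Wnt5a and Fbxo25 (r of 0.98, 0.97 and 0.97), for Wisp2 Ctsc, the gene of a lysosomal protease, Cabin1 and Parm1 (0.96, 0.95 and 0.94), and for Wisp1 Scube2, Galk1 and Sf3b5 (each 0.95). Cyr61 was less closely followed, by Sap30, Ccdc25 and Ube4b (0.87, 0.87 and 0.86), and Ctgf by Lsm12, Ccdc124 and Ap1b1 (0.81, 0.81 and 0.78). Among the members themselves r was furthest from 0 for Cyr61 and Nov, at -0.90. The points share 2 libraries and differ widely in depth, endothelial cells being the shallowest, so these are descriptions without a test.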

How the data were processed

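The deposited files hold raw UMI counts per gene and cell, without normalization. The authors made these counts from 10x Genomics Chromium 3′ libraries, sequenced on a NextSeq 500, with Cell Ranger at default settings on mm10, and kept cell barcodes by total UMI count; the submitters' processing notes give version 1.2.0, and the study's methods name a later one. All barcodes were used. Cells were gated in the order haemoglobin (over 50% of UMIs), immune, endothelial, mural and Schwann (5 or more UMIs over each marker list), then by Scx; 8 mutant cells passing several gates were left out. Scrublet called 26 and 8 cells (1.10% and 0.309%) as doublets; these were kept.

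For each class the UMIs of all cells were added up and scaled to CPM. Intervals are exact Poisson (levels), exact binomial (shares) and exact conditional (ratios) at 95%. For a difference of shares, the exact binomial limits of both shares were combined by Newcombe's method. For a count of 0 the limit given is that of 3 counts, which is lower than the upper end of the exact interval. With 1 library per condition no test was run, because cells are not replicates, and the separation of pups is lost in the pools. For shares, each cell was thinned to 1500 UMIs and shallower cells were left out (84 and 19 Scx-high cells, 41 and 166 Scx-low fibroblasts). Genes with 50 or more UMIs over both libraries in a class were tested for a 2-fold difference, which is a description of these libraries. The ratio was tested on sums simulated with counting error alone. That checks the calculation and not the intervals for UMIs that cluster in few cells. The gene members and lists were chosen with earlier results of these data known. Genes named beyond the family are the highest and lowest 2 ratios of each list and class, the 3 nearest in pattern, gate and check markers, Tgfbr2 and Wisp3. Outside this rule, Tnmd, Pi16 and Col2a1 were set with the lists as genes that split a class, and the Myh11 split and the leading genes of member-positive cells were picked with their values known. Python 3.11.15, NumPy 2.4.6, SciPy 1.17.1, pandas 2.3.3 and Scanpy 1.11.5 were used.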

Additional observations from a re-analysis of the deposited data

Results flagged for a closer look

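Ctgf and Wisp2 moved in opposite directions in different cell classes under the same contrast. The ratio of the mutant over the wild-type library was 2.17 for Ctgf in Scx-high cells and 1.42 in Scx-low fibroblasts, but 0.304 in mural cells. It was 3.44 for Wisp2 in Scx-high cells and 6.49 in Scx-low fibroblasts, but 0.211 in mural cells. The Wisp2 ratio in Scx-high cells was 1.02 with the Scx limit at 60, and both wild-type levels under the Wisp2 ratios above 1 were not told apart from the immune background. The Ctgf ratio in Scx-low fibroblasts was 1.07 as a mean over cells and 0.482 in cells above the immediate early median. No order was read from its thinned shares there. In mural cells the Ctgf ratio rested on 8 mutant UMIs. With 1 library per condition the difference between classes was not tested.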

How the results depend on the processing

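No paired analysis was possible because there is 1 library per condition. The alternatives were other Scx limits (15 and 60), gates at 3 UMIs, the Scx limit before the gates, a filter on cells, removal of doublets, means over cells, totals without the 20 most abundant genes, centring on the median gene, other fibroblast limits, other thinning depths and other limits for calling genes. Of 162 values under them 141 were counted as the same as the reported one and 21 as moved. Member ratios counted as the same lay within the counting interval of the reported ratio, which is wide for members with few UMIs. They include the mural Nov ratio, at 0.513 with gates at 3 UMIs against 0.354 as reported. For the member ratios of mural and endothelial cells only gates at 3 UMIs were tried, which left the endothelial ratios unchanged. The mural ratios were thus not checked under the other alternatives. No reported value whose interval left out 1 (ratios) or 0 (shares) changed direction. Of the values whose interval included it, the Scx-high ratios of Cyr61 and Wisp1 went to 1.01 and 1.06 with the Scx limit at 60, the Cyr61 share difference in Scx-high cells to -0.223 points at 1000 UMIs, and in Scx-low fibroblasts that of Ctgf to 0.119 and 0.706 and that of Wisp1 to 0.915 and 0.460 at 1000 and 2500 UMIs. Over them the Nov ratio in Scx-low fibroblasts ran from 0.344 to 0.363, the Wisp2 ratio from 5.22 to 7.19, and the Ctgf ratio from 1.78 to 2.29 in Scx-high cells but from 1.07 to 1.54 in Scx-low fibroblasts.

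In Scx-high cells, Wisp2 fell to a ratio of 1.02 with the Scx limit at 60. Cyr61 and Wisp1 were at 0.842 and 0.843 without the 20 genes and at 0.802 and 0.803 after centring. These values lie below the reported intervals (0.906 to 1.05 and 0.860 to 1.10). In Scx-low fibroblasts Wisp1 was at 1.10 as a mean over cells. The share difference of Cyr61 was 7.82 points at 1000 UMIs, with an interval that left out 0 (4.05 to 11.4). That of Wisp2 was 3.23 points at 1000 and 7.61 at 2500. For Ctgf in Scx-high cells the share difference was 2.98 points at 1000 UMIs, with an interval that included 0 (-0.158 to 7.18). Genes past the fold numbered 2065, 409 and 3018 in Scx-high cells with a minimum of 20 UMIs, of 200 UMIs and with 1.5-fold, against 1241 as reported. In the same order they numbered 1267, 323 and 1938 in Scx-low fibroblasts (777), 731, 49 and 694 in mural cells (200) and 211, 5 and 115 in endothelial cells (40). The number of genes tested also changes with the UMI minimum, so these counts do not show how the shares of genes moved.

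Splits chosen after seeing the data moved more. At or below the median of immediate early UMIs, Cyr61 was at 1.33 and Nov at 0.269 in Scx-high cells, and Ctgf at 2.42, Nov at 0.424 and Wisp1 at 2.16 in Scx-low fibroblasts. Above it Nov was at 1.81 in Scx-high cells (1.16 without 1 cell), and in Scx-low fibroblasts Cyr61 was at 1.21 while Ctgf and Wisp1 turned to 0.482 and 0.633. Cyr61 was at 2.03 in mural cells with 2 or more Myh11 UMIs and Nov at 0.644 in the rest. Without the mutant cell with most UMIs of each member, Nov in Scx-high cells moved to 0.603, and the ratios of the other members and of Nov in Scx-low fibroblasts and mural cells stayed within their intervals. The cause was not tested. Depth limits the endothelial values and every level under about 10 UMIs, and a batch difference between the libraries cannot be told apart from the genotype.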

Other observations

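Cells of a class that held 2 or more UMIs of a member were set beside the cells of the same class and library with none, a comparison chosen after the values had been seen. In mutant Scx-low fibroblasts elastin (Eln) was among the 8 leading genes for each of the 4 members looked at. It stood at 16390.0 CPM in 148 Nov cells against 2586 in cells without Nov, at 15246 against 2628 for 107 Wisp1 cells, at 14337 against 3586 for 89 Wisp2 cells and at 22780.4 against 3189.5 for 34 Ctgf cells. The positive cells were deeper, with medians between 4025 and 5155.5 UMIs against 2759 to 2805 in the negative cells, and the part of depth was not tested. Wisp1 cells also led in Tagln (982 against 67.3) and Col8a1 (1220.2 against 122), and Ctgf cells in Tagln (1203 against 107), whereas Wisp2 cells led in Ctla2a (98.5 against 6.12) and Spp1 (341 against 68.1).

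In wild-type Scx-low fibroblasts 177 Nov cells led in Thy1 (705 against 129.9) and Anxa8 (639.8 against 143), and Fbn1, the gene of the microfibril protein fibrillin, stood at 2068 against 553. In wild-type mural cells 65 Wisp2 cells led in Col13a1 (343 against 6.79), the smooth muscle gene Cnn1 (2398 against 169.9) and P2rx1 (645 against 37.4). The leading gene of 19 Ctgf cells among mutant Scx-high cells was Pthlh, a secreted regulator of cartilage and tendon insertion, at 397 against 19.4 on 51 UMIs. These values come from 1 library each and have no replicate.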
